A study of Mus musculus with 6 samples.

Results

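The genes of oxidative phosphorylation were followed in mouse cells described as T cells and cultured with macrophage supernatant. Members were taken by symbol: mitochondrial genes beginning mt-Nd, mt-Co, mt-Cyt or mt-Atp, and protein-coding nuclear genes beginning Ndufa, Ndufb, Ndufc, Ndufs, Ndufv, Sdh followed by a to d, Uqcr, Cox4i, Cox5 to Cox8, or Atp5. This gave 111 of the 55401 genes counted, 13 of them mitochondrial and 98 nuclear. The letters also took in 12 assembly factors (Ndufaf and Sdhaf), which are counted apart below, and 13 further rows matched the letters without being protein-coding and were left out. Among these was Ndufb1-ps, with 5190 counts over the 6 libraries.

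The 3 NFL libraries came from T cells given supernatant of macrophages stimulated for 24 h. By the design text the stimulus was 5 µg/mL of neurofilament light chain (NFL), an axonal structural protein, prepared from sciatic nerve by freezing and thawing. The paper makes nerve lysate in that way, as a treatment apart from NFL, and names a purchased NFL protein for its mice. Whether these macrophages received purified NFL or lysate is not settled here. The 3 control libraries came from T cells given supernatant of unstimulated macrophages. In both groups the macrophages had been grown from CD11b+ spleen monocytes for 7 days in M-CSF at 50 ng/mL, and T cells received 50% supernatant in medium containing 2% serum. No strain, age or genotype is stated for the bulk libraries, and nothing states that libraries of a group came from separate animals or cultures, so the p-values measure the spread between these libraries, which may be technical.

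Library totals ran from 15843045 to 24639756 counts, and the deepest were control replicates 1 and 3. The T cells were selected on CD8a beads according to the design text. Markers bore that label out only in part. Thy1 lay at 1566 to 1707 CPM (counts scaled to the library size), Cd3e at 48.8 to 65.0 CPM and Cd4 at 23.2 to 27.5 CPM. Low in every library were Cd3d (2.34 to 4.80 CPM), Cd3g (6.01 to 8.85 CPM), Cd8a (3.22 to 4.49 CPM), Cd8b1 (0.865 to 1.58 CPM) and Trac (0.988 to 2.49 CPM). Of 12 macrophage or monocyte markers, 9 were at or under 3 counts in every library, Lyz2, C1qa and Csf1r among them. The list summed to 39.9 to 45.1 CPM in the controls and 39.1 to 41.0 CPM with NFL. Within these lists Cd3e was lower with NFL (log2 fold change -0.28, adjusted p = 0.000572), the only call among 8 tested T cell markers. The other T cell fold changes went both ways. Of the 2 macrophage markers tested, Cd68 was lower (-0.26, adjusted p = 0.0494), while Apoe was above 0 and not called (0.21, adjusted p = 0.195). Of 5 natural killer markers only Eomes and Klrb1c were above 3 counts in any library, and Ncr1, Klra8 and Klra4 were not. This list summed to 461 to 482 CPM in the controls and 437 to 458 CPM with NFL. Nearly all of it was Eomes, which was not called (-0.04, adjusted p = 0.486), and Klrb1c was lower (-0.51, adjusted p = 2.43e-06). The B cell list summed to 16.7 to 19.6 CPM over all libraries, the neutrophil list to 4.10 to 5.62 and the erythroid list to 0.983 to 1.98, with no call among their 6 tested genes. The part of these markers in the results was not tested.

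Oxidative phosphorylation passes electrons from NADH and succinate through complexes I to IV to oxygen, pumps protons across the inner mitochondrial membrane, and uses the gradient at complex V, the ATP synthase, to make ATP. Complex II is encoded wholly in the nucleus. The other complexes join nuclear subunits to a few subunits encoded in mitochondrial DNA, whose genes are transcribed as long precursors from both strands. T cells raise mitochondrial respiration after activation and depend on it as memory cells.

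Among the mitochondrial members, part of the signal is bounded by sequence. Nuclear DNA of the mouse carries a copy of mitochondrial DNA on chromosome 1, annotated as a row of unprocessed pseudogenes at chr1:24611535-24616197 (GRCm38, minus strand) whose annotated genes match mitochondrial genes between base 6394 and base 11042. The end of mt-Co1, mt-Co2, mt-Atp8, mt-Atp6, mt-Co3, mt-Nd3, mt-Nd4l and the start of mt-Nd4 lie in it. The submitters' processing notes name the build GRCm39, while 54349 gene identifiers in the count table are identical, version included, to GENCODE M21 on GRCm38. Coordinates here are therefore those of GRCm38 and were not converted. The sequences below show why reads from this stretch can match more than 1 place. For mt-Nd3 and its chromosome 1 copy Gm28438, the capital marks the single base by which their first 60 bases differ, T3C, counted from the first base of mt-Nd3.
mt-Nd3: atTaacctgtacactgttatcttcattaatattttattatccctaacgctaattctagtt
Gm28438: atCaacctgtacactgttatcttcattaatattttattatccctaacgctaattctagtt

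In all, 345 of the 348 bases of mt-Nd3 align to Gm28438 with that 1 mismatch. The copies of mt-Co2 (Gm28661, 681 of 684 bases), mt-Atp6 (Gm10925, 678 of 681), mt-Co3 (Gm28437, 783 of 784) and mt-Nd4l (Gm10222, 294 of 297) are identical over the aligned bases. For mt-Atp8 no copy is annotated, but the space left for it matches: 233 bases separate the aligned ends of mt-Co2 and mt-Atp6 in the mitochondrial genome, and 233 separate their copies on chromosome 1. In mt-Nd4 the first 876 of 1378 bases are identical to Gm28439, and in mt-Co1 the last 479 of 1545 bases are identical to Gm29216. The borders are shown here, 30 bases to each side, with the copied bases in capitals. For mt-Nd4 these are bases 847 to 906, and for mt-Co1 bases 1037 to 1096.
mt-Nd4: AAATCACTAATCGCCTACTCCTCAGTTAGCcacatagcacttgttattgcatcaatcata
mt-Co1: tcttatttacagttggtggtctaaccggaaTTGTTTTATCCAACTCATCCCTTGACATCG

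Levels followed this border. The 6 members that lie almost wholly inside the stretch were nearly absent from the counts, between 0.618 CPM per kb of exon (mt-Atp8) and 9.33 CPM per kb (mt-Nd3), as means over the 6 libraries. Counts per library were 1 to 4 for mt-Atp8, 3 to 10 for mt-Nd4l, 9 to 22 for mt-Co2, 9 to 30 for mt-Atp6, 28 to 59 for mt-Co3 and 46 to 74 for mt-Nd3. The 7 members outside it, or with a long part outside it, were among the abundant transcripts. mt-Co1, the catalytic subunit of complex IV, was highest at 3283 CPM per kb, followed by mt-Cytb, cytochrome b of complex III, at 2446, mt-Nd1 at 2373 and mt-Nd2 at 1480 CPM per kb. mt-Nd6 and mt-Nd5 were level at 1141 and 1140 CPM per kb, and neither was the higher of the pair in every library. mt-Nd4 was lowest at 665 CPM per kb. Counted over the 502 bases outside its copy, mt-Nd4 would be at 1827 CPM per kb, and mt-Co1 over its 1066 such bases at 4758. The chromosome 1 copies themselves collected 45 to 202 counts each over the 6 libraries. Less close copies on other chromosomes match mt-Co1 (Gm13340, 1545 bases at 97.6% identity), mt-Nd2 (Gm13339, 510 of 1038 bases at 96.7%) and mt-Nd5 (Gm4076, 954 of 1824 bases at 95.2%). How reads that match several places were handled is not given in the sources used here, and its part in these levels was not tested. The levels of the 6 low members can therefore not be read as the levels of their transcripts.

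**Figure D1:**
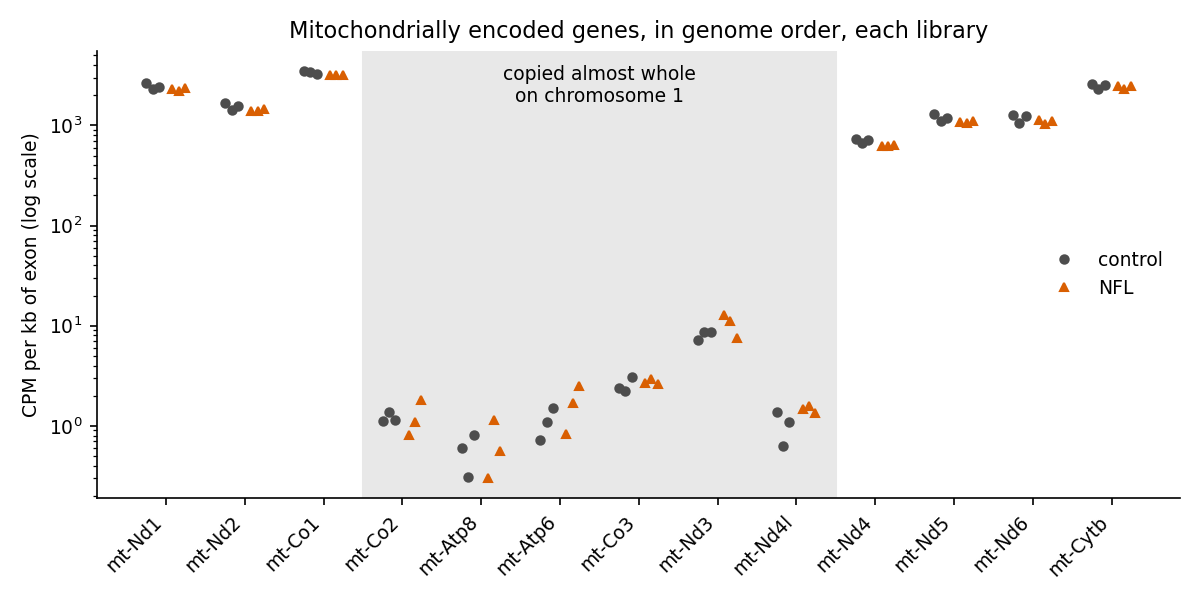
Level of each mitochondrially encoded member in CPM per kb of exon (log axis), in the order of the genes along the mitochondrial genome, with control libraries as circles and NFL libraries as triangles. The 6 members in the shaded stretch average 0.618 to 9.33 CPM per kb, and the 7 others 665 to 3283.

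With NFL supernatant the abundant mitochondrial transcripts were slightly lower. Of the 13 mitochondrial members 11 passed the filter on low counts, and 6 of these were past the threshold of adjusted p = 0.05, all lower with NFL. Over all 14082 genes tested, 7.00% were past the threshold in either direction and 3.53% were lower. The median log2 fold change of the 11 was -0.09, or -0.14 over the 7 abundant members, against -0.00 over all genes tested. In bulk RNA, fewer cells of a type and less RNA per cell cannot be told apart. mt-Nd3, mt-Co2, mt-Co3 and mt-Atp6, tested at these low counts, had fold changes above 0 (0.06 to 0.60 on the log2 scale) and none passed, while mt-Nd4l and mt-Atp8 were under the filter.

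The mitochondrial subunits of complex I make up the proton-pumping membrane arm. mt-Nd4 was at 1006, 917 and 982 CPM in control replicates 1 to 3 and at 867, 854 and 876 CPM in NFL replicates 1 to 3. The groups did not overlap, and the log2 fold change was -0.16 ± 0.03 (SE, adjusted p = 6.61e-05), a fall of 10.7%. Among all genes tested, 22.7% had groups that did not overlap. For mt-Nd5 the controls held 2342, 2020 and 2179 CPM and the NFL libraries 1989, 1932 and 2019 CPM. Control replicate 2 and NFL replicate 3 differed by about 1 CPM there, and the change was -0.14 ± 0.03 (adjusted p = 0.00134). mt-Nd2 stood at 1738, 1482 and 1623 CPM against 1432, 1431 and 1512 CPM. Its groups overlapped, since control replicate 2 was under NFL replicate 3, and the change was -0.15 ± 0.03 (adjusted p = 0.00141).

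mt-Nd6, the only member on the opposite strand of the mitochondrial DNA, was at 664, 553 and 645 CPM in the controls and 589, 535 and 569 CPM with NFL. Its change was -0.14 ± 0.04 (adjusted p = 0.0122). It shares 14 bases with mt-Nd5 on the other strand, and whether the counting used strand is not stated. Both strands are transcribed as long precursors, so counting without strand would add RNA of the other strand to mt-Nd6. Whether its call is separate from that of mt-Nd5 was not tested. mt-Nd1, where ubiquinone binds at the base of the membrane arm, was at 2514, 2184 and 2332 CPM against 2207, 2125 and 2262 CPM. In both genes control replicate 2 lay among the NFL libraries, and for mt-Nd1 the change of -0.09 ± 0.03 was close to the threshold (adjusted p = 0.0469).

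Complex IV was represented by mt-Co1, at 5380, 5277 and 5038 CPM in the controls and 4951, 4868 and 4919 CPM with NFL. These groups did not overlap, and the change was -0.09 ± 0.02 (adjusted p = 0.0101). Complex III was represented by mt-Cytb, at 2981, 2610 and 2902 CPM against 2812, 2644 and 2838 CPM. Control replicate 2 was the lowest of the 6 libraries for this gene, and no difference was called (-0.03, 95% interval -0.10 to 0.03, adjusted p = 0.601).

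**Figure D2:**
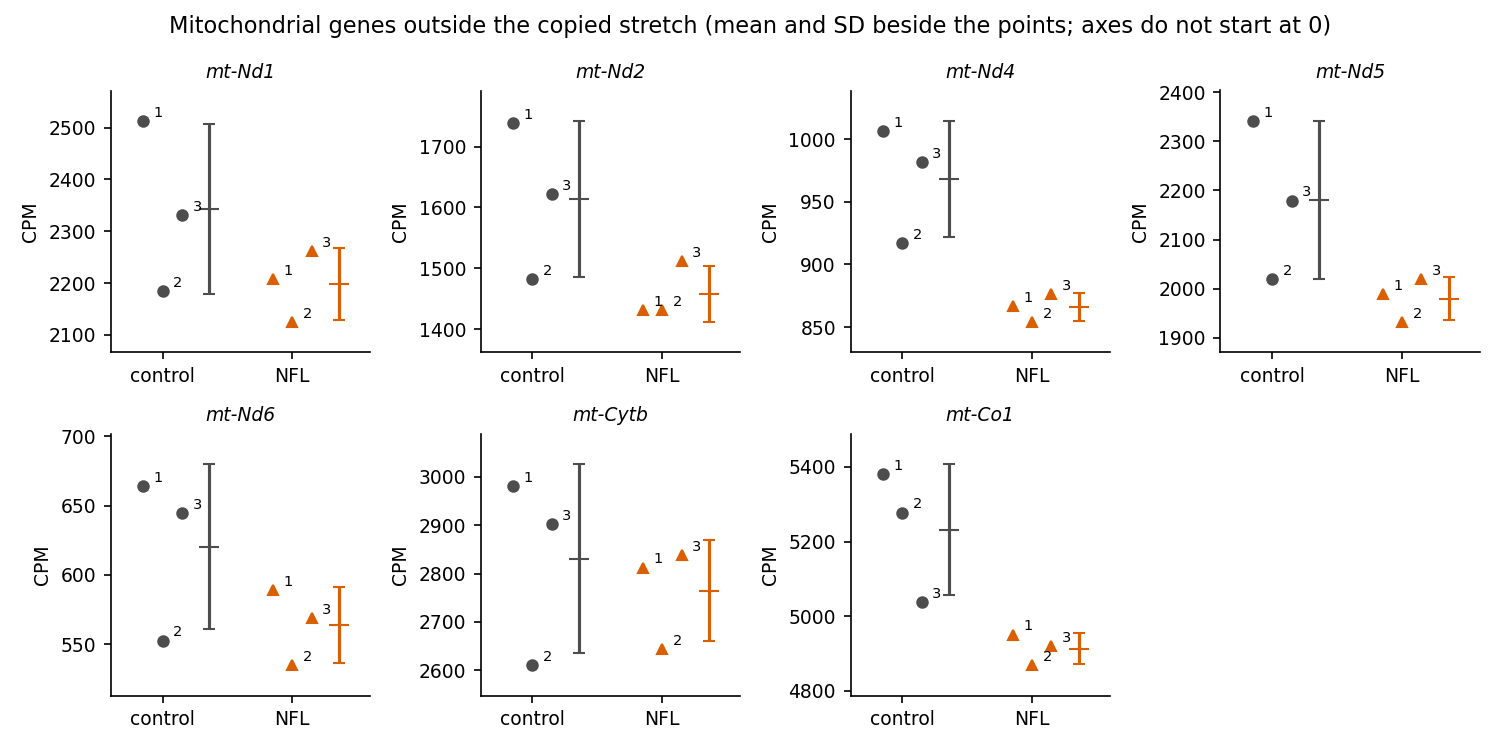
CPM of the 7 abundant mitochondrial members in each library, labelled by replicate number, with the group mean and SD beside the points; axes do not start at 0. Control replicate 2 lies under the other controls for every gene except mt-Co1, and the NFL libraries lie wholly under the controls for mt-Nd4, mt-Nd5 and mt-Co1.

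Control replicate 2 bears on all of these values. It was the shallowest library, while control replicates 1 and 3 had 24639756 and 24299918 counts and the 3 NFL libraries 16190568 to 17796228. The 13 mitochondrial members together took 1.66%, 1.51% and 1.58% of the counts of control replicates 1 to 3 and 1.48%, 1.43% and 1.49% of those of NFL replicates 1 to 3. So the groups did not overlap in this share, with control replicate 2 and NFL replicate 3 closest. By the DESeq2 Wald test mt-Nd4 and mt-Co1 were past the threshold, while mt-Nd5 (adjusted p = 0.190), mt-Nd2 (0.222), mt-Nd6 (0.422) and mt-Nd1 (0.459) were not. That test called 731 of the 9714 genes to which it gave an adjusted p (7.53%), and edgeR called 986 of 14082. With all libraries thinned to the smallest total, 6 members were again past the threshold (6.83% of all genes were). Without control replicate 2, 7 were past it, all lower (6.66% of all genes were), with mt-Cytb among them (-0.09, adjusted p = 0.0105 by edgeR). mt-Cytb also passed with length and GC trends removed (-0.10, adjusted p = 0.0155 by edgeR). Without control replicate 1, only mt-Nd4 of the 6 remained past it (4.66% of all genes were), and the adjusted p of the other 5 ran from 0.0812 (mt-Nd5) to 0.558 (mt-Nd1). mt-Nd1 also missed it without NFL replicate 1, 2 or 3 (up to 0.315), mt-Nd6 without NFL replicate 2 or 3 or control replicate 3 (up to 0.159), and mt-Co1 without NFL replicate 2 or 3 (up to 0.0939), by edgeR. Against control replicate 2 alone, taken as the control after the data were seen and assumed to vary like the NFL libraries, mt-Co1 was still lower (-0.10 ± 0.02, adjusted p = 0.00159), mt-Cytb was higher (0.08 ± 0.03, adjusted p = 0.0389), and the other 5 did not pass (-0.08 to 0.03), with 5.19% of all genes past the threshold. Without the 2 deepest libraries, the 5 abundant complex I transcripts thus lay between -0.08 and 0.03 on the log2 scale. The thinning above made the totals equal and kept the same 6 mitochondrial calls. Whether another property of these 2 libraries takes part in the fall was not tested.

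The 2 mitochondrial ribosomal RNAs, which are no members, did not follow the same order of libraries. mt-Rnr2 was at 610, 756 and 648 CPM in the controls and 585, 582 and 606 CPM with NFL, a fall of 0.18 on the log2 scale (adjusted p = 0.000959), or 0.09 without control replicate 2 (adjusted p = 0.0444). Here control replicate 2 was the highest library. mt-Rnr1 was also highest in control replicate 2, at 524 CPM, and did not pass (-0.08, adjusted p = 0.191). These RNAs took 0.101% to 0.129% of the counts of these libraries; poly(A) selection preceded library preparation.

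The nuclear members showed no comparable fall. Of the 98, 92 passed the filter and 4 were past the threshold (4.35%), 3 higher and 1 lower, against 7.00% of all genes tested, 3.47% higher and 3.53% lower. Fold changes were above 0 for 57 of the 92 and for 49.6% of all genes, with a median of 0.02 against -0.00. Groups did not overlap for 16 of the 92 (14 with NFL above), against 22.7% of all genes (11.5% with NFL above). For 78 of the 92 the whole 95% interval of the fold change lay inside 1.2-fold in either direction, so a change beyond that size lay outside the intervals of most members. Together the nuclear members took 0.994% to 1.00% of the counts in the controls and 0.999% to 1.01% with NFL.

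**Figure D3:**
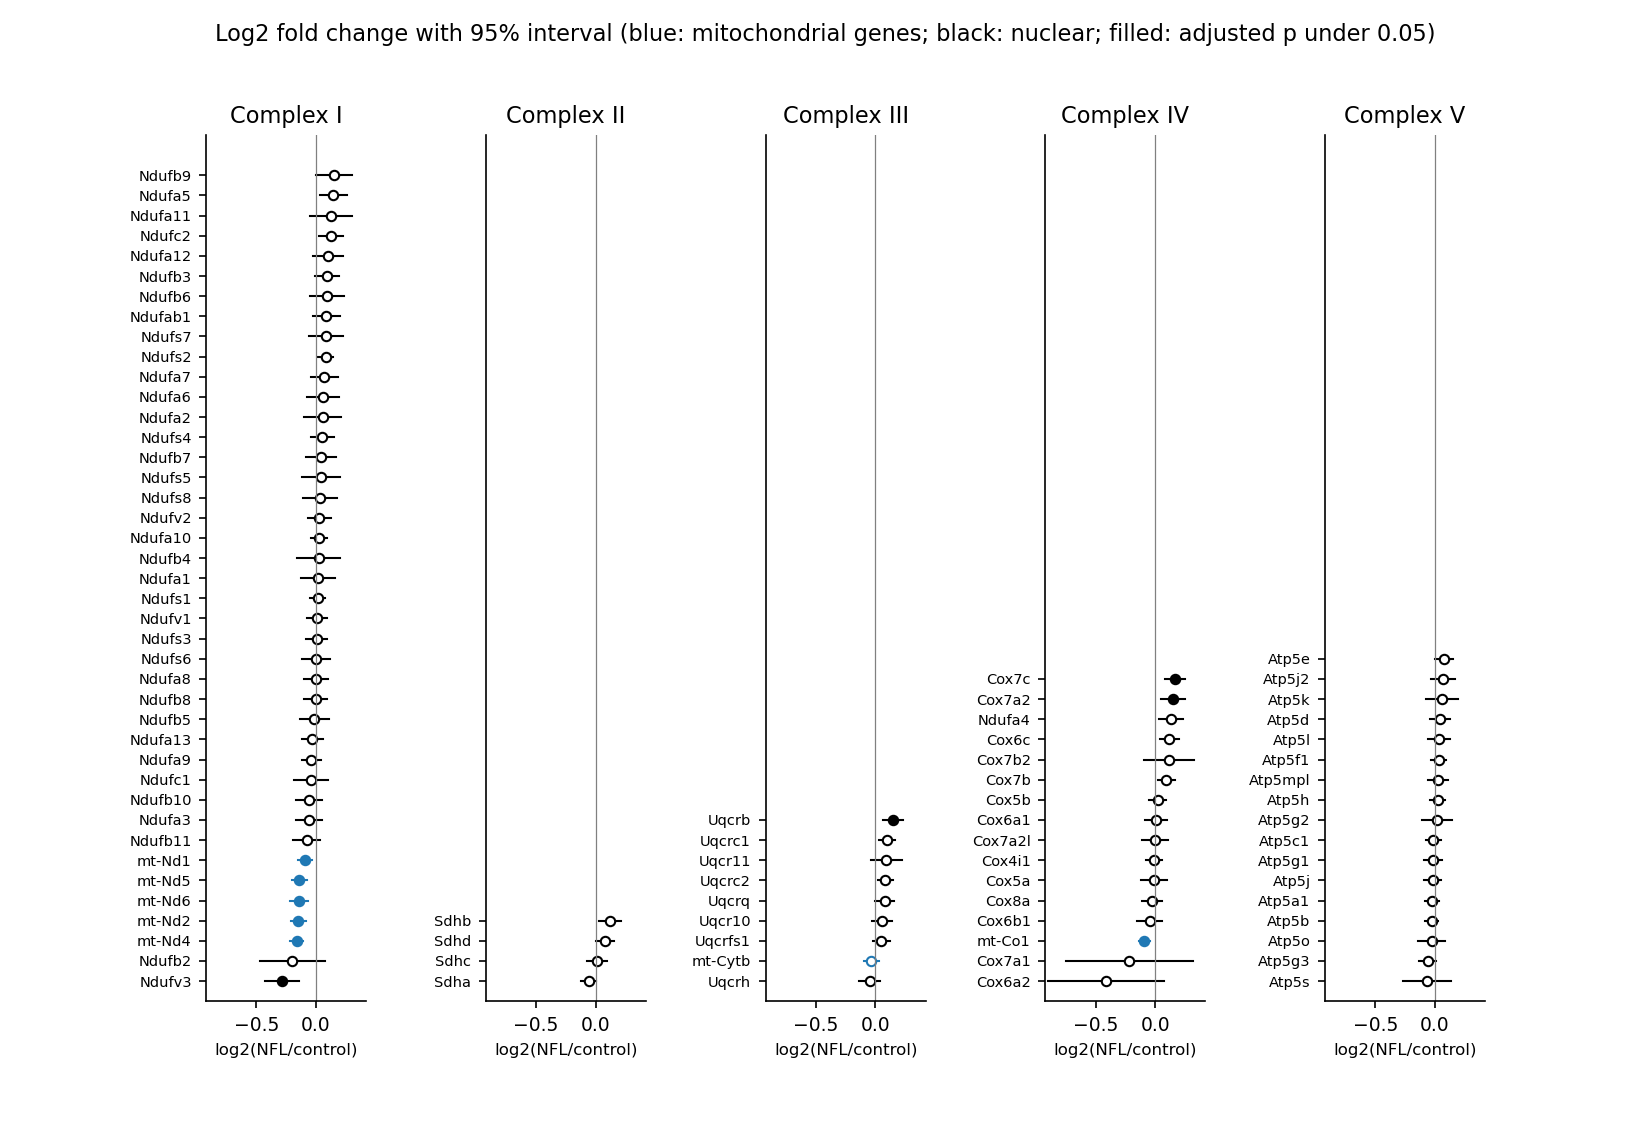
Log2 fold change (NFL against control) with its 95% interval for the tested nuclear subunits and the 7 abundant mitochondrial members, by complex; mitochondrial genes are blue and filled points are past the threshold. Filled points are 6 of the 7 mitochondrial genes, all left of 0, and the nuclear genes Cox7c, Cox7a2 and Uqcrb right of 0 and Ndufv3 left of 0; the lower end of the interval of Cox6a2 reaches -0.90.

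Complex I, NADH dehydrogenase, had 36 nuclear members, all tested. Only Ndufv3 was past the threshold (2.78% of the 36), 24 fold changes were above 0 and the median was 0.03. Ndufv3 is an accessory subunit beside the NADH-binding flavoprotein. It was at 43.6, 34.3 and 37.9 CPM in control replicates 1 to 3 and 33.7, 31.5 and 30.6 CPM in NFL replicates 1 to 3. The NFL libraries were all lower, the closest pair being control replicate 2 and NFL replicate 1. Its fall of 0.29 on the log2 scale (SE 0.07, adjusted p = 0.00768) did not pass without control replicate 1, without NFL replicate 3 or against control replicate 2 alone, where the adjusted p reached 0.654. The 7 nuclear core subunits, which carry the flavin and the iron-sulfur clusters, had fold changes of 0.01 to 0.08, and none passed. The most abundant nuclear member of the complex, the core subunit Ndufs1, averaged 265 ± 7.87 CPM (SD, n = 3) in the controls and 268 ± 2.03 CPM with NFL (log2 fold change 0.02, 95% interval -0.05 to 0.08). The largest fold change above 0 among members of at least 10 CPM was that of Ndufb9 (0.15, adjusted p = 0.275). The 29 accessory subunits ran from -0.29 to 0.15, with 17 above 0 and 12 under it. Of the 7 mitochondrial subunits of the complex, the 5 abundant ones lay between -0.16 and -0.09, mt-Nd3 at 0.35 at its low counts (adjusted p = 0.424), and mt-Nd4l was not tested. The difference between the nuclear and mitochondrial sets was not tested.

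Complex II, succinate dehydrogenase, has no mitochondrial subunit and 4 nuclear ones. None of the 4 passed. Sdha, the flavoprotein and the most abundant, was at 309 ± 10.2 CPM (SD, n = 3) against 296 ± 8.10 CPM (-0.06, 95% interval -0.12 to 0.00, adjusted p = 0.314). Sdhb, the iron-sulfur subunit, was at 94.9, 89.9 and 91.7 CPM in the controls and 106, 97.7 and 97.0 CPM with NFL. Its groups did not overlap, but the change of 0.12 ± 0.04 missed the threshold (adjusted p = 0.0923).

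Complex III, cytochrome bc1, had 8 nuclear members, and 7 of the 8 fold changes were above 0, with a median of 0.08. Uqcrb, a small subunit that binds ubiquinone, was past the threshold. It was at 107, 112 and 103 CPM in the controls and 120, 120 and 115 CPM with NFL, a rise of 0.15 ± 0.04 (adjusted p = 0.0191). All NFL libraries lay above all controls. The rise did not pass under 6 of 17 alternatives, with an adjusted p of up to 0.469, among them leaving out NFL replicate 1 or 2 or control replicate 1 or 3 (up to 0.134). Uqcrb overlaps Gm10767 on the opposite strand by 50 bases, and 3 processed pseudogenes match 225 of its bases at 97.3% to 98.2% identity. The core protein Uqcrc2, most abundant in the complex, was at 204 ± 0.955 CPM (SD, n = 3) against 216 ± 4.24 CPM (0.08, adjusted p = 0.121), and the other core protein Uqcrc1 was at 0.10 on the log2 scale (adjusted p = 0.0706). Uqcrh, the hinge protein beside cytochrome c1, was the only member under 0 (-0.05, adjusted p = 0.619). Summed over the 8 genes, the nuclear members of complex III stood at 1032 ± 15.9 CPM (SD, n = 3) in the controls and 1084 ± 9.38 CPM with NFL, while mt-Cytb was at 2831 ± 195 and 2765 ± 105 CPM.

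Complex IV, cytochrome c oxidase, had 20 nuclear members, of which 15 were tested and 2 were past the threshold, both small subunits around the catalytic core. Cox7c was at 142, 126 and 144 CPM in the controls and 163, 148 and 153 CPM with NFL. No NFL library was under a control, and the rise was 0.17 ± 0.04 (adjusted p = 0.00578), which did not pass after removal of length and GC trends or without NFL replicate 1 (adjusted p up to 0.142). The processed pseudogene Gm10012 matches 233 of the 709 bases of the longest Cox7c transcript at 99.6% identity and had 14 counts over the 6 libraries. Cox7a2 was at 71.1, 76.7 and 75.0 CPM against 86.8, 80.1 and 79.9 CPM. Here too the groups were apart, but the rise of 0.15 ± 0.05 was near the threshold (adjusted p = 0.0465) and passed under only 6 of 17 alternatives; of the fits with 1 library left out, only that without control replicate 2 kept it (adjusted p up to 0.244 in the others). The most abundant subunit, Cox6c, was at 256, 215 and 252 CPM against 249, 264 and 275 CPM. Control replicate 2 was its lowest library, and its 0.12 ± 0.04 did not pass (adjusted p = 0.058). Cox6b1, which faces the intermembrane space, had the largest fold change under 0 among members of at least 10 CPM (-0.05, adjusted p = 0.683). Over the complex 8 fold changes were above 0 and 7 under it, with a median of 0.00.

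**Figure D4:**
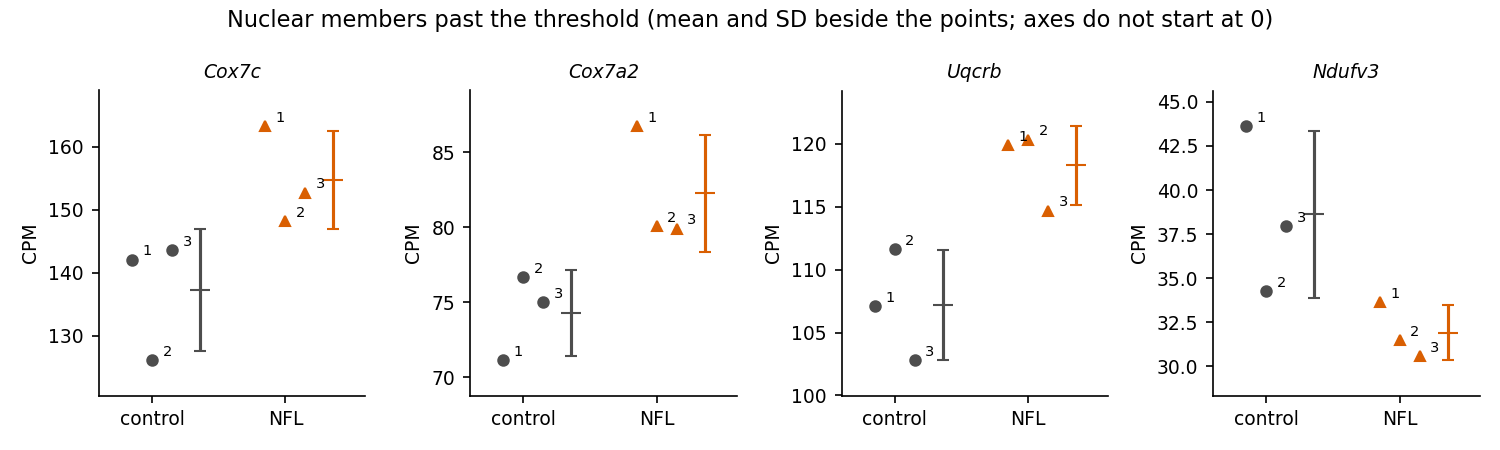
CPM of the 4 nuclear members past the threshold in each library, labelled by replicate number, with the group mean and SD beside the points; axes do not start at 0. The 3 NFL libraries lie above the controls for Cox7c, Cox7a2 and Uqcrb and under them for Ndufv3.

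Complex V, the ATP synthase, had the most abundant nuclear members and no call among 17 tested. Atp5b, the catalytic beta subunit, was at 863, 883 and 838 CPM in the controls and 865, 829 and 845 CPM with NFL. The groups overlapped, and the interval of the log2 fold change ran from -0.08 to 0.03 (adjusted p = 0.683). The 5 subunits of the F1 head lay between -0.03 and 0.08, with Atp5e, its epsilon subunit, highest (adjusted p = 0.241), and Atp5s, a coupling factor, had the lowest value of the complex (-0.06, adjusted p = 0.808). The summed level of the nuclear members of complex V was 3913 ± 69.9 CPM (SD, n = 3) in the controls and 3898 ± 27.5 CPM with NFL. A second row named Atp5o had 0 counts in every library. The 12 assembly factors, which help build complexes I and II, were at 4.53 to 113 CPM, and none passed (-0.12 to 0.15).

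Subunit c forms the rotor ring of the ATP synthase, and 3 genes encode the same mature protein. In every library Atp5g3 was highest, at a mean of 131 CPM per kb of exon, against 27.8 for Atp5g1 and 26.2 for Atp5g2. It held 69.5% to 71.7% of their summed level per kb, with 70.8% to 71.7% in the controls and 69.5% to 71.4% with NFL.

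Several complex IV subunits come as alternative forms that differ between tissues. The forms found in most tissues dominated here. Per kb of exon, Cox4i1 exceeded Cox4i2, a form known from lung and low oxygen, by 463-fold (154 and 0.333 CPM per kb), and Ndufa4 exceeded Ndufa4l2 by 165-fold. These folds are imprecise, since Cox4i2 had 2 to 8 counts and Ndufa4l2 2 to 11 counts per library. Cox6a1 exceeded the heart and muscle form Cox6a2 by 38.1-fold, and Cox7a2 exceeded the muscle form Cox7a1 by 20.3-fold. Cox6b2 and Cox8b were at 0 to 3 counts and Cox8c at 0 counts in every library, where 3 counts correspond to 0.122 to 0.189 CPM. Cox7a2l, which takes part in supercomplexes, was at 39.7 CPM per kb, 2.09-fold under Cox7a2. Cox7b2, known from testis, was an exception to the pattern of near absence: it was at 24.9 CPM per kb, 5.46-fold under Cox7b, with 209 to 320 counts in every library. Exon lengths were taken over all annotated exons of a gene, so a long rare exon lowers its level per kb. Of these genes that were tested, only Cox7a2 was past the threshold between the groups.

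**Figure D5:**
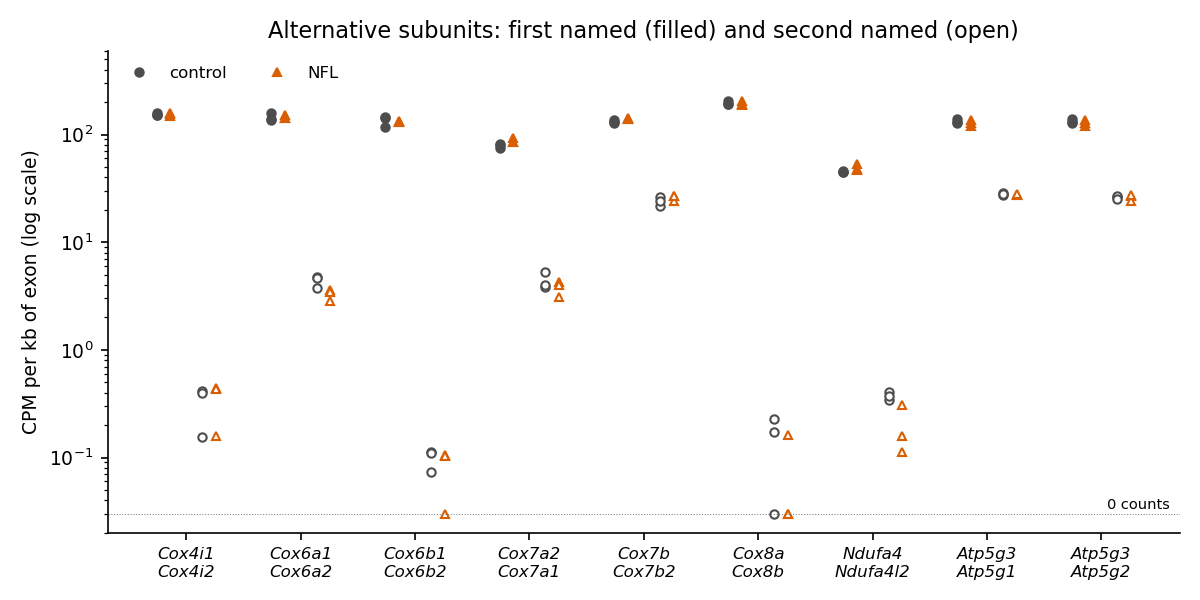
Level of alternative subunits in CPM per kb of exon (log axis), with the first-named gene of each pair filled, the second open, control libraries as circles and NFL libraries as triangles; points on the dotted line had 0 counts. The first-named gene is above the second in all 6 libraries for every pair.

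Promoters were examined because many respiratory genes are known to be driven together by the factors NRF-1 and GABP, an ETS factor, and by YY1. RefSeq promoters (GRCm38.p6, 250 bases before to 50 bases after the start) were found for 78 of the 97 nuclear symbols, 83 promoters in all. The letters TGCGCA (the core bound by NRF-1) were present in 25.3% of them and in 7.76% of all 32851 promoters, CCGGAAG (ETS) in 25.3% and 8.86%, and AAGATGG (YY1) in 13.3% and 6.34%. The general promoter letters TATAAA were in 10.8% and 13.6%, and GGGCGGG (SP1) in 34.9% and 25.6%. Both strands were searched, and these letters were chosen after the data were seen, in place of longer forms of the NRF-1 and YY1 motifs that had been searched first and with which Cox7c held no match. The median log2 fold change was 0.02 with and 0.02 without the NRF-1 letters, 0.03 and 0.02 for ETS, and -0.00 and 0.03 for YY1. Over the 42 tested members with any of these 3 motifs it was 0.03, and over the 34 with none 0.00. Of the 3 called genes with a promoter sequence, Cox7c held a YY1 match and Cox7a2 and Ndufv3 held none. Their promoters are shown because these genes changed in opposite directions, beside that of Sdha, which has NRF-1 matches beginning 56 and 11 bases before the start. Matches to these 3 motifs are in capitals. The windows are chr13:86046746-86047045 (minus strand) for Cox7c, chr9:79759804-79760103 (minus) for Cox7a2, chr17:31519865-31520164 (plus) for Ndufv3 and chr13:74350191-74350490 (minus) for Sdha.
Cox7c: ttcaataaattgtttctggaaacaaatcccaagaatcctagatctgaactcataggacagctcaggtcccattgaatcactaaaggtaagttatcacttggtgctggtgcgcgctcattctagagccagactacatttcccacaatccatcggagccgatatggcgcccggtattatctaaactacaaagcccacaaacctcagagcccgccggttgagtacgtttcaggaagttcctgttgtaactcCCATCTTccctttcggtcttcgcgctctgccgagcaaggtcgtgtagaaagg
Cox7a2: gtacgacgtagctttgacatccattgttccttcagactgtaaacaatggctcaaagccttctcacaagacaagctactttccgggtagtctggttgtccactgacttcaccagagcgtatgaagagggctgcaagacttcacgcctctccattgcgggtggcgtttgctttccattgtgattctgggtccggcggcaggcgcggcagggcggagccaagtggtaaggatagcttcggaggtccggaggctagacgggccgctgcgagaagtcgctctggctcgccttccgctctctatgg
Ndufv3: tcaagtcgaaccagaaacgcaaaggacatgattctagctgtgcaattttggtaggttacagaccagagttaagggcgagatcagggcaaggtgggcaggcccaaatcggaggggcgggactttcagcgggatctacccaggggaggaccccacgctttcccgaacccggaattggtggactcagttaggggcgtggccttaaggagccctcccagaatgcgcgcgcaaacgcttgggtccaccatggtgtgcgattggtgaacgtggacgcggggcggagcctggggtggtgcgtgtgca
Sdha: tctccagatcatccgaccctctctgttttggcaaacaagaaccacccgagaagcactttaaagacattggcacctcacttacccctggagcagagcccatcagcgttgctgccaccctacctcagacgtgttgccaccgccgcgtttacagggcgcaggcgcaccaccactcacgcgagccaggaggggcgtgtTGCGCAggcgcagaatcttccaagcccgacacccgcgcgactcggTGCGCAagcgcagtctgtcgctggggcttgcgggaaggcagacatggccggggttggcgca

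The rest of the mitochondrial machinery was described with 11 lists of genes that are no members. The counts are to be read against all genes tested, of which 7.00% were past the threshold, 3.47% higher and 3.53% lower, and 49.6% had a fold change above 0, with a median of -0.00. Protein import had 5 of 33 tested genes past the threshold (15.2%), all higher, with a median of 0.10 and 23 fold changes above 0. Among them Hspd1, the matrix chaperonin, rose from 1600 ± 22.8 to 1766 ± 9.47 CPM (SD, n = 3, adjusted p = 5.7e-05), and Tomm20, a receptor of the outer membrane, rose from 581 ± 13.5 to 634 ± 4.58 CPM (adjusted p = 0.00162). Timm17a and Tomm22, both parts of import channels, rose by 0.13 and 0.10. Of 9 tested electron carriers and other subunits, Cycs and Cyc1 were past the threshold, and the median was 0.04. Cycs, cytochrome c, which carries electrons from complex III to IV, rose by 0.15 ± 0.03 (adjusted p = 0.00361). Cyc1, the cytochrome c1 subunit of complex III that its symbol keeps out of the rule, rose by 0.11 ± 0.04 (adjusted p = 0.0477).

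The mitochondrial ribosome had 2 of 77 past the threshold (2.60%, under the share of all genes), Mrpl35 (0.18, adjusted p = 0.00981) and Mrpl45 (0.16, adjusted p = 0.0322), with 62 fold changes above 0 and a median of 0.07. RNA processing and turnover had 2 of 23 (8.70%), Tbrg4 (0.15) and Ptcd3 (0.10), both higher, and a median of 0.08. The 18 genes of mitochondrial transcription and genome maintenance held no call and had a median of -0.01. Single calls came from the tricarboxylic acid cycle and pyruvate dehydrogenase (1 of 23: Pdhb, 0.18, adjusted p = 0.000546), the membrane carriers (1 of 13: Slc25a5, the ADP/ATP carrier, 0.12, adjusted p = 0.00332) and coenzyme Q synthesis (1 of 12: Pdss1, 0.24, adjusted p = 0.0473), whose list medians were 0.02, 0.00 and 0.02. Assembly factors outside the rule had none of 40 and a median of 0.03. Mitochondrial ribosomal and transfer RNAs had 1 of 10, mt-Rnr2, with 9 of the 10 fold changes under 0 and a median of -0.18. The median SE of this list was 0.17, and the transfer RNAs took at most 0.0056% of the counts of a library.

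Among 15 tested regulators of mitochondrial biogenesis only Ppargc1a was past the threshold, and the median was -0.02. It encodes PGC-1alpha, a coactivator of NRF-1 and of nuclear receptors. It fell from 64.0 ± 2.16 CPM in the controls to 52.9 ± 2.28 CPM with NFL (SD, n = 3, log2 fold change -0.28 ± 0.05, adjusted p = 0.000322). Of the 16 genes past the threshold in the 11 lists, 7 stayed past it with each library left out in turn: Ppargc1a, mt-Rnr2, Hspd1, Tomm20, Cycs, Pdhb and Slc25a5. The share of all called genes that stay past it in every such fit is not given here, nor are the other alternatives for these lists. Cyc1 stayed past it in none of these fits (adjusted p up to 0.150), and the other 8, which were Timm17a, Tomm22, Tomm70a, Mrpl35, Mrpl45, Tbrg4, Ptcd3 and Pdss1, in 1 to 4 of the 6 (adjusted p up to 0.440).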

How the data were processed

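Poly(A)-selected RNA was sequenced on an Illumina instrument, and the authors deposited raw read counts per gene with 1 column per sample, without normalization. No aligner, counting program or strand setting is given in the sources used here; the submitters' processing notes name GRCm39, R 4.2.1 and limma 3.54.2. Of 55401 identifiers 55141 received a symbol, and columns without a sample numbered 0. Counts were analysed in R 4.3.3: genes kept by filterByExpr (minimum count 10, total 15) were scaled with TMM factors, and the quasi-likelihood test of edgeR 4.0.16 (glmQLFit, glmQLFTest) was applied with Benjamini-Hochberg adjustment over all 14082 genes and a threshold of 0.05. The biological coefficient of variation was 3.48%. CPM used TMM-scaled library sizes, and marker levels and floors library totals. Floors cover counting error only. In simulated counts edgeR recovered 89 of 100 genes changed by 0.3 and 99 of 100 changed by 0.6 (log2), with 10 false calls. The changed genes had at least 10 CPM. All called members changed by less than 0.3, and recovery at such sizes was not simulated. Copies were searched by BLAST of transcripts (at least 95% identity over 150 bases).

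Alternatives were DESeq2 size factors, library size alone, scaling without mitochondrial genes, 2 other filters, a replicate block, thinning, the DESeq2 1.42.0 Wald test, limma-voom 3.58.1, offsets for length and GC, and each library left out. Named genes were all mitochondrial members, nuclear members past the threshold, the most abundant, highest and lowest fold change (at least 10 CPM) of each complex, up to 4 called genes of each list, and isoform pairs. Uqcrc1, Cox7b2, Cox8c and the T cell and macrophage markers named were chosen after their values were seen. Members and lists were chosen with earlier results of these data known. The labels' design text gives 5 µg/mL NFL, whereas the paper's co-culture methods give another dose.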

Additional observations from a re-analysis of the deposited data

How the results depend on the processing

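The count of mitochondrial members past the threshold, 6, was 2 by the DESeq2 Wald test (mt-Nd4 and mt-Co1). That test put 7.53% of the 9714 genes to which it gave an adjusted p past the threshold. With 1 library left out, where 3.53% to 6.66% of all genes were past it, the count was 1 to 7 mitochondrial members (1 without control replicate 1, 3 without NFL replicate 2 or 3). Their median log2 fold change, -0.09, was -0.035 with no filter, -0.14 with length and GC trends removed, -0.14 over the 7 abundant members, of which mt-Nd4 and mt-Co1 lie partly in the copied stretch, and -0.11 to -0.037 with 1 library left out. Against control replicate 2 alone it reversed to 0.010, as did mt-Nd1 (0.010), mt-Nd6 (0.031) and mt-Cytb (0.085). The count of nuclear members, 4, was 7 against control replicate 2 alone, of which only Cox7c was among the original 4, and 2 to 5 with 1 library left out (2 without control replicate 1, NFL replicate 1, 2 or 3, where 4.66%, 5.19%, 4.23% and 3.53% of all genes were past it). The cause of these shifts was not tested. Their median stayed between 0.01 and 0.07 in all 17 alternatives. Over the 26 tested members named by rule, 380 of 436 values kept their side of the threshold, 43 lost it and 10 gained it. Counted apart were 3 values that reversed with a call in either fit. A change of sign without a call was not counted, so some of the 380 changed direction. Among them were Cox6b1 (-0.05, and 0.17 against control replicate 2 alone) and mt-Co2 (0.06, and -0.32 without NFL replicate 3). The labels give no pairing of the replicate numbers, and the values do not settle it. Same-number correlations were small (0.0074 to 0.015), but each library correlated best with its own number. With a replicate block there were 6 mitochondrial and 5 nuclear calls, adding Cox6c (7.45% of all genes were past the threshold). The 6 members of the copied stretch had 1 to 74 counts per library, which limits the precision of their fold changes.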
